A study of Mus musculus with 12 samples.

Results

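The aryl hydrocarbon receptor (AHR) and 5 of its known targets were followed in keratinocytes, the cells that build the epidermis, cultured from mice and measured on 12 arrays. The 6 genes were Ahr, Ahrr, Cyp1a1, Cyp1b1, Tiparp and Aldh3a1. They were taken by name, and each was represented by its probe set with the highest mean signal. All 6 had a probe set, among 22180 genes with a single gene symbol, and only Tiparp had a second. The wt cultures were Atg7 f/f K14::Cre - and the KO cultures Atg7 f/f K14::Cre +, so floxed Atg7 alleles were common to all 4 groups. The Cre is driven by K14, a keratin gene of basal keratinocytes. At partial confluence in KGM-2 medium, cultures received 20 µM paraquat or a sham treatment, and RNA was taken 48 h later. Paraquat, a herbicide, takes electrons from cellular reductases and passes them to oxygen as superoxide. Each of the 4 groups held 3 arrays, described as biological triplicates. Which animals the cultures came from is not in the labels, and the p-values cover no more than the spread between these cultures. The number of arrays limits the precision.

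AHR is a ligand-activated transcription factor of the bHLH-PAS family. Without a ligand it waits in the cytoplasm with chaperones such as HSP90 and p23. With one it enters the nucleus, pairs with ARNT and binds xenobiotic response elements with the core GCGTG. Its targets include the monooxygenases CYP1A1 and CYP1B1, the aldehyde dehydrogenase ALDH3A1, and 2 brakes on the receptor itself. One is AHRR, a repressor that competes for ARNT, and the other is TIPARP, a mono-ADP-ribosyltransferase that modifies AHR. In the epidermis AHR is known to respond to pollutants and to light-formed tryptophan products, and to take part in barrier gene expression.

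Tiparp and Cyp1b1 changed in these cultures, while Cyp1a1 and Ahrr, with the same core near their starts, did not pass the test. The signals of Cyp1a1 and Ahrr lay under every array median, so a missing call there does not show a missing response. Start-site sequences are shown for the 4 members found in the promoter reference. They are the 250 bases before the annotated start, from RefSeq on GRCm38.p6, written 5′ to 3′ along the gene's strand, and capitals mark the core GCGTG or, on the other strand, CACGC. Ahr and Aldh3a1 were not among the matches.
Tiparp (chr3:65528197-65528446, plus strand): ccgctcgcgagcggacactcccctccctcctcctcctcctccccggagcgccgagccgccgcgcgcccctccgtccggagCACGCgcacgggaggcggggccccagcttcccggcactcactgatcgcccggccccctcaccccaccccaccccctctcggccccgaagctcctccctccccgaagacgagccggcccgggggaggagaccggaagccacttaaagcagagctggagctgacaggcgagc
Cyp1b1 (chr17:79715062-79715311, minus strand): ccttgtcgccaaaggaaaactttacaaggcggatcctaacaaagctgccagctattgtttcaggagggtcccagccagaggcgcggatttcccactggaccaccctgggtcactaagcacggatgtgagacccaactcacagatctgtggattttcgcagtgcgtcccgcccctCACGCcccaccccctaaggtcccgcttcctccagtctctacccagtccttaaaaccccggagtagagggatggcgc
Cyp1a1 (chr9:57697363-57697612, plus strand): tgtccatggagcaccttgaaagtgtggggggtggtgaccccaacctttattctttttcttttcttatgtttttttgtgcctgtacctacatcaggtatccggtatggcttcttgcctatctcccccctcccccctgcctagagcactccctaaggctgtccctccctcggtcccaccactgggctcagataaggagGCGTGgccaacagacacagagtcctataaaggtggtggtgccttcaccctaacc
Ahrr (chr13:74292332-74292581, minus strand): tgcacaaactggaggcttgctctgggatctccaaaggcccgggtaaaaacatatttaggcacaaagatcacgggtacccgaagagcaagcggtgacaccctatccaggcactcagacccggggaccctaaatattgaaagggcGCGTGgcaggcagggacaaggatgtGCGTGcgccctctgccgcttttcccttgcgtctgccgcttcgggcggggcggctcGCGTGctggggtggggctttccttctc

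Each of these windows held the core. Ahrr had 3 copies on the gene's strand, their first bases at -107, -82 and -27 from the start, and the last overlapped the longer form TNGCGTG. Cyp1a1 had 1 copy at -54, Cyp1b1 had 1 on the opposite strand at -76, and Tiparp had 1 on the opposite strand at -170. The core is short. It was found, on either strand, in 28.2% of the same upstream windows of 32851 annotated starts, and TNGCGTG in 4.1%. The antioxidant response element TGACNNNGC was searched on both strands over the full window of 300 bases. It was found in 0 of the 4 member windows and in 12.4% of all windows. A match is a description of letters and not of binding. Sites farther from the start were not searched, so the windows need not hold the sites that AHR uses.

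**Figure D1:**
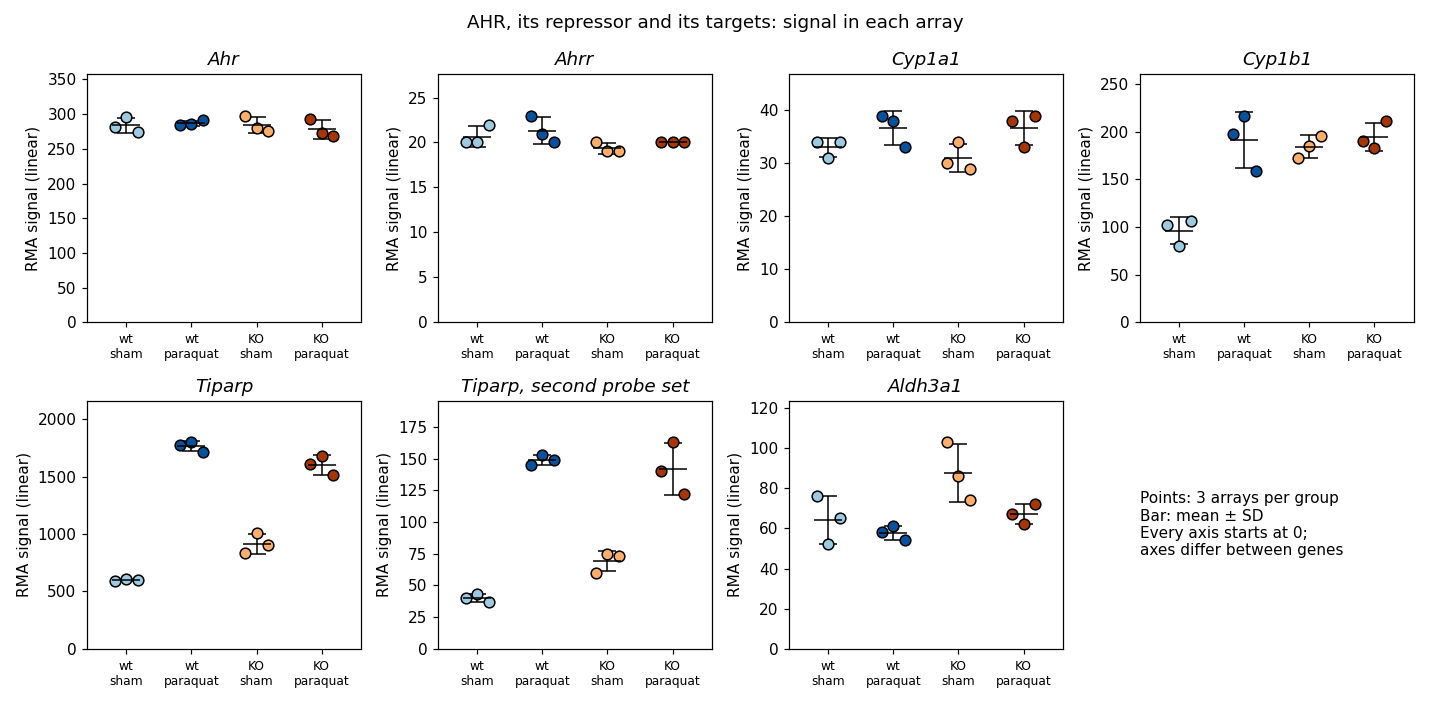
RMA signal (linear scale, axes starting at 0) of each member in the 4 groups of cultures. Points are the 3 arrays of a group and bars the mean ± SD. Tiparp climbs from 593 to 607 in wt sham to 1719 to 1802 in wt paraquat, Cyp1b1 is lowest in wt sham, and Ahr lies between 268 and 298 in every array.

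Signals are the authors' RMA values on a linear scale. Array medians lay between 42 and 45. Background was not measured. Over all genes, the first principal component (64.4% of the variance) had all paraquat arrays on one side and all sham arrays on the other. Atg7 had signals of 96 to 148 in the 6 KO arrays and 286 to 457 in the 6 wt arrays, although its probe set need not lie in the deleted part. Of 6 keratinocyte markers 5 were measured, and all 5 had group means above 45, with Krt14 at 8960 to 10980. A pair of arrays stood apart from their groups. On the first component wt sham 2 was at -25.8 against -36 and -35.3, and on the third KO paraquat 3 was at -19.7 against -5.5 and -6.3. The second component spread all wt sham arrays, at -11.4, -31.4 and -20.4.

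The receptor and its repressor come first. Ahr transcript did not pass any of the 5 tests and varied little between arrays. Its wt signals were 281, 296 and 274 in sham and 284, 286 and 291 under paraquat. Its KO signals were 298, 280 and 276 in sham and 293, 273 and 268 under paraquat. The arrays of all 4 groups overlapped. Under paraquat Ahr was 1.01-fold its sham level in wt (95% interval 0.907 to 1.13, limma adjusted p = 0.904) and 0.976-fold in KO (0.874 to 1.09, adjusted p = 0.796). KO against wt gave 1.00-fold in sham (0.899 to 1.12) and 0.968-fold under paraquat (0.867 to 1.08). The 4 intervals together run from 0.867 to 1.13. Receptor protein and activity were not measured.

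Ahrr lay low on the array, at signals of 19 to 23 in all 12 arrays, around percentile 27.4 of all probe sets. Its wt sham values were 20, 20 and 22 and its wt paraquat values 23, 21 and 20. In KO it read 20, 19 and 19 in sham and 20 in each paraquat array. The values span a few units of a whole-number scale, and no comparison passed the test (smallest adjusted p = 0.538, KO against wt in sham). Signals this far under the array median cannot be told from background here, so the values do not show whether the repressor is transcribed.

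Among the targets, Tiparp had the clearest change. Its signals in wt sham were 593, 607 and 598, and in wt paraquat 1780, 1802 and 1719. In KO they were 833, 1006 and 901 in sham and 1609, 1684 and 1511 under paraquat. No array of one group reached into another group: wt sham was lowest, KO sham next, then KO paraquat, then wt paraquat. Tiparp rose 2.95-fold in wt (log2 1.56 with an SE of 0.083, 3 arrays against 3, adjusted p = 2.18e-08), from 599 ± 7.09 (SD) to 1767 ± 43. It rose 1.76-fold in KO (log2 0.81 ± 0.083, adjusted p = 9.3e-06), from 913 ± 87.2 to 1601 ± 86.8. In sham cultures it was already 1.52-fold higher in KO than in wt (log2 0.60 ± 0.083, adjusted p = 6.57e-04). The uppermost neighbours in the order did not differ by the test: KO paraquat was 0.905-fold wt paraquat (95% interval 0.799 to 1.03, adjusted p = 0.574), although their arrays did not overlap, as was so for 17% of all genes in that comparison.

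The second Tiparp probe set was dimmer but kept the order of the group means. Its arrays of the paraquat groups overlapped between the genotypes. In wt it read 40, 43 and 37 in sham and 145, 153 and 149 under paraquat. In KO it read 60, 75 and 73 in sham and 140, 163 and 122 under paraquat. When all 41345 probe sets were tested, a choice made after seeing the data, its log2 changes under paraquat were 1.90 ± 0.12 in wt (adjusted p = 1.54e-06) and 1.03 ± 0.12 in KO (adjusted p = 1.58e-04). Both probe sets put the larger rise in wt. The wt sham signals of the dimmer lay close to the array medians of 42 to 45, so the size of its rise in wt is uncertain. The brighter and the dimmer read the same RNA samples, so they are not independent. Their responses differed between genotypes by log2 -0.75 (adjusted p = 0.0189) for the brighter and -0.87 (adjusted p = 0.0482) for the dimmer.

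Cyp1b1, which oxidises polycyclic hydrocarbons, steroids and retinoids, was low in 1 group only. Its wt signals were 102, 80 and 106 in sham and 198, 217 and 159 under paraquat. Its KO signals were 172, 185 and 196 in sham and 190, 183 and 211 under paraquat. Every wt sham array lay under every other array, and the other groups overlapped one another. In wt it rose 1.99-fold under paraquat (log2 0.99 with an SE of 0.13, 3 arrays against 3, adjusted p = 4.97e-05), from 96 ± 14 (SD) to 191 ± 29.6. In KO it was 1.06-fold (95% interval 0.870 to 1.28, adjusted p = 0.729), from 184 ± 12 to 195 ± 14.6. In sham cultures it was 1.93-fold higher in KO than in wt (log2 0.95 ± 0.13, adjusted p = 5.95e-04). Under paraquat the genotypes were at 1.02-fold (0.844 to 1.24, adjusted p = 0.958). Without wt sham 2, the lowest array, the wt rise was log2 0.87 and still passed.

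Cyp1a1, the most used readout of AHR activation, stayed under the array median. The wt arrays read 34, 31 and 34 in sham and 39, 38 and 33 under paraquat. The KO arrays read 30, 34 and 29 in sham and 38, 33 and 39 under paraquat. Paraquat and sham arrays overlapped in both genotypes. The fold under paraquat was 1.11 in wt (95% interval 0.956 to 1.29, adjusted p = 0.316) and 1.18 in KO (1.02 to 1.37, adjusted p = 0.0924). The KO value passed with arrays centred on their medians (log2 0.30, adjusted p = 0.0417) and without KO paraquat 2 (log2 0.32, adjusted p = 0.0496). Its liver relative Cyp1a2 was as dim, with group means of 33 to 44, and rose in KO (log2 0.42 ± 0.11, adjusted p = 0.0128) but not by the test in wt (log2 -0.049, adjusted p = 0.809). Its difference of responses did not pass (adjusted p = 0.162). Signals this low cannot be told from background here. Neither a shift in Cyp1a1 or Cyp1a2 nor its absence therefore shows how these genes responded.

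Aldh3a1, which clears aldehydes from lipid peroxidation, did not pass any of the 5 tests. Its wt arrays read 76, 52 and 65 in sham and 58, 61 and 54 under paraquat, and its KO arrays 103, 86 and 74 in sham and 67, 62 and 72 under paraquat. The mean was highest in KO sham. Its paraquat arrays did not overlap its sham arrays in KO, as was so for 37.2% of all genes. The log2 change under paraquat was -0.38 ± 0.14 in KO (adjusted p = 0.0652) and -0.14 ± 0.14 in wt (adjusted p = 0.533), and KO against wt in sham gave 0.45 ± 0.14 (adjusted p = 0.0622). Both KO-related values sat close to the threshold and passed when some arrays were left out: the response in KO without wt sham 1, wt sham 2 or KO sham 3 (adjusted p = 0.0284 without the last), and the sham difference without wt sham 1 or KO sham 3 (adjusted p = 0.0215 and 0.0357).

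**Figure D2:**
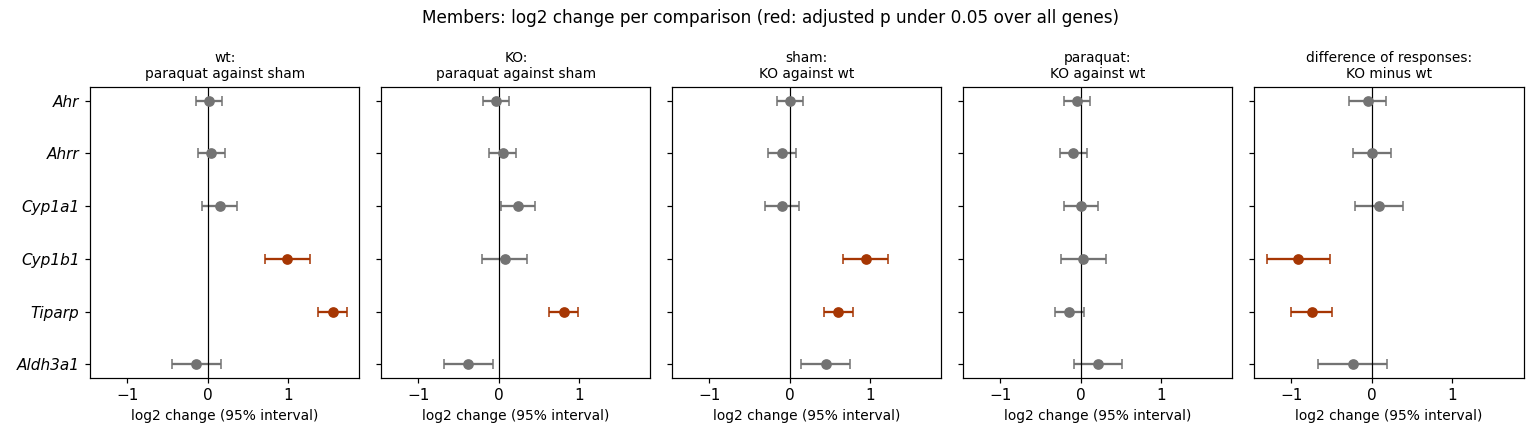
Log2 change of the 6 members with 95% intervals in the 5 comparisons, from limma. Red marks an adjusted p under 0.05 over all genes: Tiparp and Cyp1b1 in wt under paraquat (1.56 and 0.99), Tiparp in KO (0.81), both in sham KO against wt, and both as negative differences between responses.

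Counted over the members, 2 of 6 rose and 0 fell in wt under paraquat by limma (2 and 0 at an unadjusted p under 0.05), where 29.2% of all genes changed, 14.9% up and 14.3% down. In KO 1 of 6 rose and 0 fell (2 and 1 at an unadjusted p under 0.05), where 27.1% of all genes changed, 14.5% up and 12.6% down. In sham cultures 2 of 6 were higher in KO and 0 lower (3 and 0 unadjusted), where 10.2% of all genes differed, 4.58% higher and 5.67% lower. Under paraquat 0 of 6 differed between genotypes by limma (0 unadjusted), where 0.55% of all genes differed, 0.0992% higher and 0.451% lower. Arrays of the groups did not overlap for 2 members in each of these 4 comparisons, beside 37.6%, 37.2%, 22.7% and 17% of all genes. The member medians were log2 0.098 in wt, 0.064 in KO and 0.23 in sham KO against wt, beside medians over all genes of 0.0088, 0.0079 and -0.0083. With 6 genes, these shares are a description only.

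Whether paraquat acted differently in the 2 genotypes was asked by the difference of responses, KO minus wt. It was negative for Tiparp (log2 -0.75 ± 0.12, adjusted p = 0.00567) and for Cyp1b1 (log2 -0.92 ± 0.18, adjusted p = 0.0213), so 2 of 6 members passed with a smaller response in KO. Over all genes 2.29% passed, 0.897% with a negative and 1.39% with a positive difference. For both genes the paraquat levels of the genotypes did not differ by the test, while the sham levels did. The comparisons share the wt sham arrays and are not independent of one another. The Tiparp difference passed without any 1 array, with adjusted p from 0.00562 to 0.0206. The Cyp1b1 difference did not pass without wt paraquat 1 or 2, KO sham 2 or 3, or KO paraquat 1 or 2, with adjusted p from 0.0519 to 0.0624 in those fits and log2 from -0.91 to -0.82.

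Markers of other cell types moved with paraquat too. For the counts below, 14.9% of all genes rose and 14.3% fell in wt, and 14.5% rose and 12.6% fell in KO. Summed signals of 5 melanocyte markers were 181 to 266 in wt sham and 239 to 247 in KO sham, against 601 to 619 and 551 to 670 under paraquat. Most of this was Mlana, with mean signals of 64.3 in wt sham and 379 in wt paraquat, and 3 of the 5 rose in each genotype, while tyrosinase (Tyr) had group means of 8 to 10.3. Sums of 4 endothelial markers went from 159 to 179 in wt sham to 351 to 430 in wt paraquat, and from 178 to 196 in KO sham to 281 to 322 in KO paraquat, mostly through Kdr, with Cdh5 at 30.3 to 33. In wt 3 of the 4 rose (Kdr, Tek by log2 0.76 and Pecam1 by 0.33), and in KO 2 did (Kdr, and Tek by 0.60). Sums of 6 fibroblast markers were 215 to 253 (sham) and 266 to 336 (paraquat) in wt, and 191 to 228 and 237 to 248 in KO. Pdgfra rose in both, and Lum had group means of 9 to 10.7. Sums of 5 leukocyte and Langerhans markers were 143 to 156 and 173 to 178 in wt, and 134 to 152 and 149 to 158 in KO, with Ptprc at 15 to 18. In wt 2 of the 5 rose (Itgam by log2 0.41 and Adgre1 by 0.26), and in KO 1 did (Itgam by 0.38). Sums of the 5 keratinocyte markers were 17871 to 18478 (sham) and 14950 to 15222 (paraquat) in wt, and 17696 to 18351 and 15140 to 16224 in KO. In each genotype 3 of them fell (Krt1, Krt10 and Krt14) and 0 rose by limma. At an unadjusted p under 0.05, 4 were lower in wt and 3 in KO, and 0 were higher in each. Between genotypes in sham cultures, the endothelial marker Tek was higher in KO (log2 0.61, adjusted p = 0.015), with mean signals of 46.3 against 30 in wt. Of the leukocyte and Langerhans markers Adgre1 was higher (0.34, adjusted p = 0.0314) and Itgam lower (-0.33, adjusted p = 0.0229) in KO sham. No marker was at 0. Their part in the Tiparp and Cyp1b1 results was not tested. In these bulk cultures fewer cells of a type and less RNA per cell cannot be told apart.

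The partners of AHR were compared next. Of 11 genes of the AHR complex and its coactivators 9 were measured. In wt 4 rose and 0 fell under paraquat by limma (5 and 2 at an unadjusted p under 0.05), with a median log2 of 0.22. In KO 3 rose and 0 fell (3 and 0 unadjusted). Over all genes 14.9% rose and 14.3% fell in wt, and 14.5% rose and 12.6% fell in KO. The coactivator Ncoa1 rose most in both (log2 0.74 ± 0.12 and 0.95 ± 0.12, adjusted p = 2.84e-04 and 4.87e-05). Ncoa2 rose by log2 0.37 and 0.53. The chaperone Hsp90aa1 (0.32) and Cul4b (0.38), a scaffold of the ubiquitin ligase with which AHR can assemble, rose in wt, and the corepressor Nrip1 (0.32) rose in KO. None of these responses was shown to differ between genotypes: 0 of 9 passed the difference of responses by limma, and 0 had an unadjusted p under 0.05. Arnt, the obligate partner, had group mean signals of 803 (sham) and 712 (paraquat) in wt and 661 and 673 in KO. It was lower in KO than in wt in sham cultures (log2 -0.28 ± 0.068, adjusted p = 0.0194), with 646 to 670 against 791 to 824, and its change under paraquat did not pass in wt (-0.17, adjusted p = 0.0788) or in KO (0.027, adjusted p = 0.832). In sham cultures Ncoa1 (-0.48) and Ncoa2 (-0.37) were also lower in KO, and Cul4b (0.36) and the p23 gene Ptges3 (0.37) were higher. Under paraquat 0 of 9 differed between genotypes by limma, and 1 was lower in KO at an unadjusted p under 0.05.

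Other genes known to respond to AHR moved in both directions. Of 14 named 10 were measured, and in each genotype 4 rose and 3 fell under paraquat. The shares over all genes were 14.9% up and 14.3% down in wt, and 14.5% up and 12.6% down in KO. Nqo1, a quinone reductase that NRF2 also induces, had arrays of 150 to 225 (sham) and 641 to 728 (paraquat) in wt, and of 281 to 369 and 798 to 839 in KO. Its groups did not overlap, and it rose by log2 1.92 ± 0.14 in wt and 1.34 ± 0.14 in KO (adjusted p = 2.03e-07 and 8e-06). It was higher in KO in sham (0.83, adjusted p = 0.00184). The growth factor Ereg rose by log2 1.57 in wt and 2.29 in KO. Serpinb2 rose in wt (0.40), and its difference of responses did not pass (adjusted p = 0.332). Cyp2s1, an epithelial P450, fell by 1.06 on the log2 scale in wt and by 0.69 in KO. The amino acid transporter Slc7a5 fell by 2.22 in wt and by 0.47 in KO, and was lower by 1.59 in KO sham than in wt sham. Its difference of responses (1.75 ± 0.13, adjusted p = 2.21e-05) was the only one of the 10 to pass, and its sign was opposite to those of Tiparp and Cyp1b1. Slc7a5 is also a known target of ATF4. Nfe2l2, encoding NRF2, did not pass in wt (0.068, adjusted p = 0.619).

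**Figure D3:**
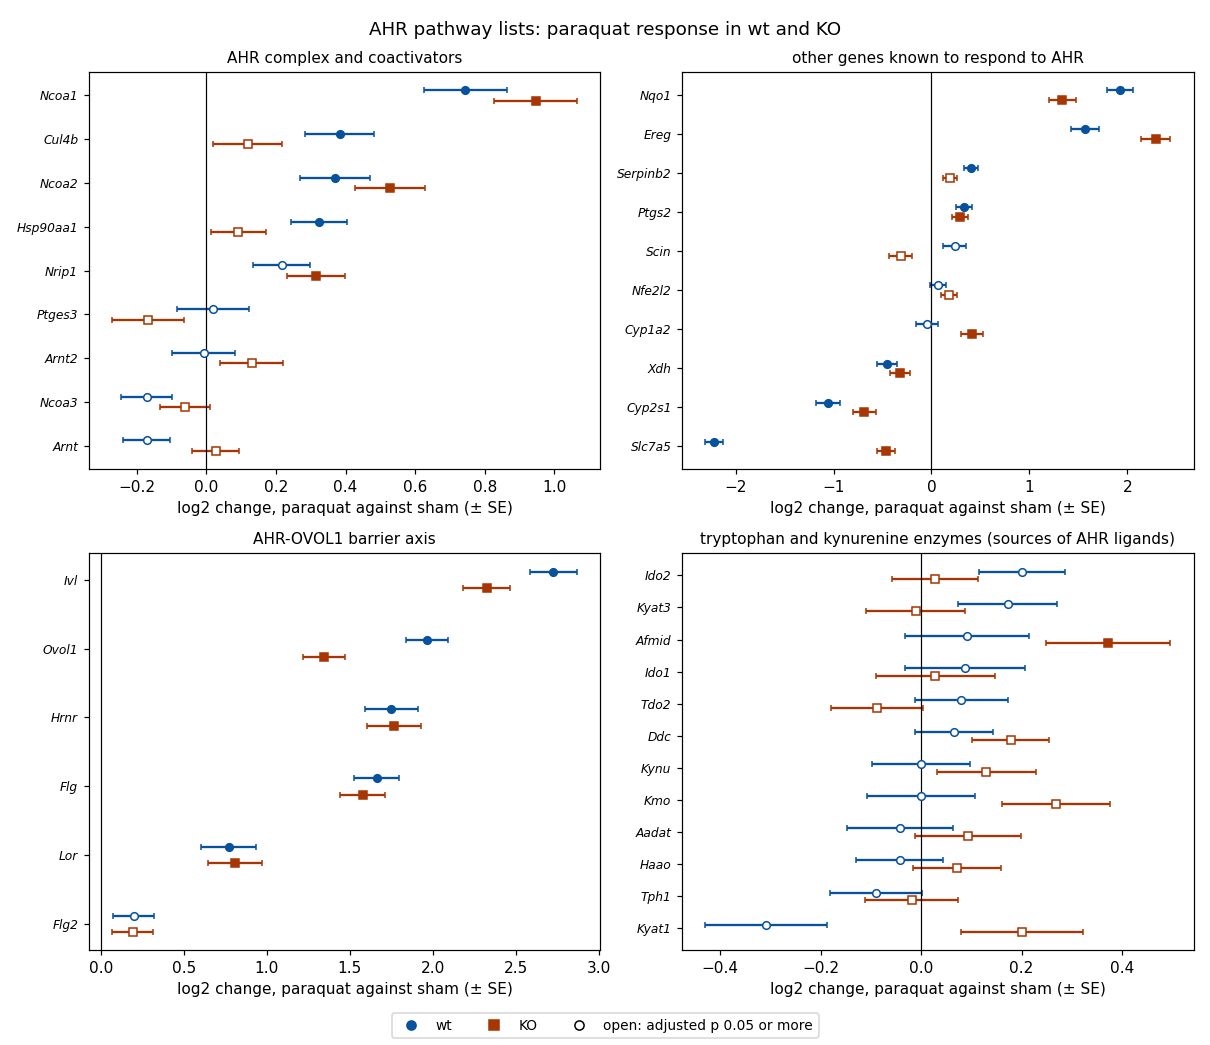
Log2 change under paraquat (± SE, 3 arrays per group) in wt (circles) and KO (squares) for 4 gene lists around AHR. Filled marks have an adjusted p under 0.05. Genes that respond to AHR fall on both sides of 0, from Slc7a5 (-2.22 in wt) to Nqo1 (1.92 in wt). Of the tryptophan enzymes only Afmid in KO passed.

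Genes of tryptophan and kynurenine enzymes, a route to AHR ligands, seldom passed the test. Not every enzyme listed makes a ligand, and ligands were not measured. Of 13 genes named 12 were measured, and Il4i1 was not. In wt 0 passed in either direction by limma (smallest adjusted p = 0.0746, Kyat1 at -0.31). In KO only the formamidase gene Afmid rose (0.37, adjusted p = 0.0406), with a difference of responses that did not pass (adjusted p = 0.499). At an unadjusted p under 0.05, 1 was higher and 1 lower in wt, and 3 were higher and 0 lower in KO. Over all genes 29.2% changed in wt and 27.1% in KO by limma. Ido1, which opens the kynurenine route, had group means of 36.7 to 41.7, and Tdo2 of 11 to 12.7, all under the array median. In sham cultures Kyat1, an aminotransferase, was lower in KO (-0.50, adjusted p = 0.0184).

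AHR and the transcription factor OVOL1 are known to raise filaggrin and loricrin in keratinocytes, so this short axis was set beside the members. Of 6 genes 5 rose in wt and 5 in KO, with median log2 1.71 and 1.46. Over all genes 14.9% rose in wt and 14.5% in KO. The part of AHR in these rises was not tested. Ovol1 arrays were 278 to 305 in wt sham and 1065 to 1164 in wt paraquat, and 305 to 392 and 695 to 955 in KO. It rose by log2 1.97 ± 0.13 in wt and 1.34 ± 0.13 in KO, a difference that did not pass (-0.62 ± 0.18, adjusted p = 0.0973). The envelope precursor Ivl rose by 2.73 and 2.33, Flg by 1.66 and 1.58, and Hrnr by 1.75 and 1.77. The loricrin gene Lor rose least of the 5, by 0.77 in wt and 0.81 in KO. Flg2, at 19.3 to 24.3, did not pass. Flg (-0.90), Lor (-0.95) and Hrnr (-0.79) were lower in KO sham than in wt sham, where Tiparp and Cyp1b1 were higher, and Flg (-0.98) and Lor (-0.91) were also lower under paraquat.

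Members' close relatives were checked for shared behaviour. Of 6 genes of the CYP1, ALDH3 and zinc-finger PARP families, 1 rose and 2 fell in wt. Over all genes 14.9% rose and 14.3% fell there. Zc3hav1, a relative of Tiparp with antiviral function, was highest in wt sham, with arrays of 757 to 1132 (sham) and 439 to 472 (paraquat) in wt, and of 490 to 544 and 445 to 499 in KO. It fell by 0.95 in wt (adjusted p = 8.07e-05), its change in KO did not pass (-0.095, adjusted p = 0.671), and its difference of responses was 0.85 ± 0.19 (adjusted p = 0.0313). Aldh3a2, a fatty aldehyde dehydrogenase, fell by 0.69 in wt and 0.40 in KO, and Aldh3b2 rose by 0.75 and 0.53. Parp12 did not pass in any comparison.

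The genes most like each member were sought over the 12 arrays by Pearson correlation of log2 signal, among the 10339 or 10340 other named genes with a mean above the median. Since the arrays split by treatment, many genes correlate strongly with a treated member, and the values are a description. Tiparp was followed most closely by Slc35d1 (r = 0.989), Rexo4 (0.987) and the epidermal lipase gene Lipn (0.985), which rose by log2 3.21 in wt and 1.99 in KO. Cyp1b1 was followed by Heatr5b (0.968) and by the sterol synthesis genes Pmvk and Cyp51 (both 0.960). Pmvk changed by 0.95 in wt, 0.28 in KO and 0.87 in KO sham against wt sham, and Cyp51 by 0.74, -0.047 and 0.94. Aldh3a1 was nearest to the histone gene H2bc12 (0.962), Ifitm2 (0.949) and Tspan12 (0.933). The best values for the other members were lower: 0.793 for Ahr (Defa34, then Crk and Ntpcr), 0.853 for Ahrr (Tle2, then Mcf2l and Klhdc10) and 0.893 for Cyp1a1 (Trmt1l, then Nthl1 and Spag1). With Spearman's rank correlation Heatr5b ranked 72, Pmvk 16 and Cyp51 402 for Cyp1b1, and Slc35d1 ranked 385 for Tiparp.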

How the data were processed

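RNA of 12 cultures was amplified, biotin-labelled and read on Affymetrix arrays. The deposited values are intensities per probe set that the authors computed by RMA, and the submitters' processing notes name Affymetrix Expression Console 1.3.1.187. The values were whole numbers from 3 to 17695, read as linear RMA signals, and their log2 was taken. Rounding makes dim genes coarse. Filters and annotation build were not given in the sources used here. Probe sets with 1 symbol (23521 of 41345) gave 22180 genes, the highest-mean probe set standing for each, with no filter. All arrays entered 1 linear model of 4 group means in limma 3.58.1 (R 4.3.3), without a block. Tests were 2-sided, Benjamini-Hochberg adjusted over all genes, with a threshold of 0.05. The method was tested on simulated data, in which the shifted genes all had a mean signal above the median of all genes. Ahrr and Cyp1a1 lie under that median, so the simulation does not cover genes as dim as these.

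The members and lists were chosen with earlier results of these data known. Named genes were the members, Atg7, up to 4 genes per list and comparison in order of p among those that passed (or the 2 smallest p), and the 3 most correlated genes per member. Of these, the text gives those that bear on the members. Ptges3, Serpinb2, Nfe2l2, Ido1, Parp12, Flg2, Cdh5 and Ptprc fall outside this rule and were chosen from the lists after their values were seen. Genes on the AHR list also have other regulators. Among the listed genes, Hsp90ab1, Ugt1a6a, Gsta1, Nedd9, Areg, Il4i1, Por, Krt5 and Cd74 had no probe set with a single symbol. Alternatives were other scalings, filters, offsets, probe set rules, variance models, the replicate number as a block and leaving out arrays.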

Additional observations from a re-analysis of the deposited data

Results flagged for a closer look

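Tiparp and Cyp1b1 stand out because their response to paraquat differed between genotypes by a test of the difference itself. The difference of responses, KO minus wt, was log2 -0.75 for Tiparp and -0.92 for Cyp1b1. Over all genes 2.29% passed this test. The Tiparp difference passed without any 1 array, while the Cyp1b1 difference did not pass in 6 of the fits without 1 array. In both genes the wt sham arrays were the lowest of all 12 arrays, and the paraquat levels of wt and KO did not differ by the test.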

How the results depend on the processing

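Tiparp passed or missed the threshold alike under all alternatives tried, its second probe set included, with log2 from 1.53 to 1.73 in wt and 0.75 to 0.92 in KO over the planned ones, leaving out 1 array included. So did Cyp1b1 in the 4 pairwise comparisons, and Ahr and Ahrr throughout. Ahrr and Cyp1a1 had no value with the filter on dim genes, which they did not pass. Without wt sham 2 and KO paraquat 3 together the Cyp1b1 difference of responses was -0.85 (adjusted p = 0.0518). Aldh3a1 passed in KO with the filter on dim genes (-0.38), array weights (-0.39) and without those 2 arrays (-0.43), and in sham with the filter (0.45). Cyp1a1 in KO passed with median centring (0.30). Leaving out 1 array gave ranges of -0.49 to -0.25 for Aldh3a1 in KO, 0.31 to 0.58 for Aldh3a1 in sham, 0.20 to 0.32 for Cyp1a1 in KO and -1.04 to -0.79 for the Cyp1b1 difference.

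Counts of genes moved more. KO against wt in sham had 2273 genes, 976 from its own 6 arrays and 1360 without the 2 arrays. Leaving out 1 gave 1418 (wt sham 2) to 2363, with 1494 without KO sham 2. KO against wt under paraquat had 122 genes, 228 with the filter, 231 with 16 added before the log2, 223 with a variance trend, 249 with array weights, 3 from its own arrays and 44 without the 2 arrays. Leaving out 1 gave 30 (wt paraquat 1) to 171, with 38 without wt paraquat 2, 53 without KO paraquat 2 and 35 without KO paraquat 3. The difference of responses had 508 genes, 894 with the filter, 882 with 16 added, 783 with the trend and 268 without the 2 arrays. Leaving out 1 gave 250 (wt paraquat 1) to 700, and 269 to 333 without wt paraquat 2 or 3, wt sham 3, KO sham 2 or any KO paraquat array. The causes were not tested.

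Samples share only a replicate number: deviations of same-numbered arrays correlated between -0.072 and 0.09. With the replicate number as a block no member call changed, and the difference of responses was -0.75 (adjusted p = 0.00938) for Tiparp and -0.92 (0.0416) for Cyp1b1, with 439 genes in all.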

Other observations

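Some genes of related families changed by more than any of the 6 members. Of 15 other aldehyde dehydrogenases 4 rose and 3 fell in wt under paraquat, and 5 rose and 1 fell in KO. The shares over all genes were 14.9% up and 14.3% down in wt, and 14.5% up and 12.6% down in KO. Aldh1a3, which makes retinoic acid, rose by log2 1.86 in wt and 1.43 in KO (adjusted p = 2.99e-07 and 5.49e-06). Aldh1l2, of mitochondrial folate metabolism, had mean signals of 323 in wt sham and 43.7 to 55.7 in the other groups, and Aldh18a1, of proline synthesis, 874 in wt sham and 163 to 344 elsewhere. Both had positive differences of responses (2.69 and 1.55, adjusted p = 5.73e-05 and 3.22e-05).

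Among 8 other cytochrome P450 genes of skin, 4 rose and 1 fell in wt, beside 14.9% and 14.3% of all genes. The retinoic acid hydroxylase Cyp26b1 rose by 1.10 in wt and 1.35 in KO. Cyp51, of sterol synthesis, rose in wt (0.74, adjusted p = 2.27e-04) and was higher in KO sham than in wt sham (0.94, adjusted p = 2.94e-04), and its difference of responses was -0.79 (adjusted p = 0.0254). Among 9 bHLH-PAS relatives of AHR, 3 rose and 2 fell in wt, beside the same 14.9% and 14.3% of all genes. Hif1a fell by 1.11 in wt and by 0.62 in KO, with group means of 3005 and 1394 in wt sham and wt paraquat, while Epas1 rose by 0.63 and 0.31 and Clock fell by 0.24 and 0.31.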
